A study of Mus musculus with 15 samples.

Results

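The genes described here were 10 regulators of the G1 phase of the cell cycle: the 6 CDK inhibitors Cdkn1a, Cdkn1b, Cdkn2a, Cdkn2b, Cdkn2c and Cdkn2d, the kinase Cdk6, and the D cyclins Ccnd1, Ccnd2 and Ccnd3. They were chosen by name and by role, with earlier results of these data known, out of 53379 genes in the table. All 10 passed the filter on low values, which 12673 genes passed, but Cdkn2b did so only through clone C2. Their RNA was measured by RNA-seq in mouse fetal liver cells transformed by retroviral MLL-ENL, a fusion oncoprotein of MLL-type leukemia, and grown with IL-3 (10 ng/ml). All lines descend from embryos with floxed Cebpa and Cebpb alleles, the genes of the transcription factors C/EBPα and C/EBPβ. WTFL cells, wild-type in the labels, kept both genes and had no listed transgene besides MLL-ENL. Double knockout (dKO) cells had lost both after treatment with TAT-Cre and carried a GFP retrovirus. The dKO-LAP* cells were dKO cells in which the GFP virus also encoded the rat LAP* isoform of C/EBPβ. WTFL and dKO cells of 2 clones, C1 and C2, and dKO-LAP* cells of C1 were analysed here, with 3 libraries in each of the 5 groups.

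D cyclins bind CDK4 or CDK6, and the active kinase phosphorylates the retinoblastoma protein, which frees E2F factors to turn on the genes of DNA synthesis. The INK4 proteins, p16Ink4a from Cdkn2a, p15Ink4b from Cdkn2b, p18Ink4c from Cdkn2c and p19Ink4d from Cdkn2d, bind CDK4 and CDK6 and keep D cyclins away. The CIP/KIP proteins p21 from Cdkn1a and p27 from Cdkn1b act mainly on CDK2 complexes. Cdkn2a also encodes p19Arf, which binds MDM2 and stabilizes p53, and MLL-rearranged leukemia cells are known to depend on CDK6.

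The 3 libraries of a group were RNA isolations from 1 line at different times, so the p-values below measure the spread between isolations, not between independently made lines. Each dKO line was a single clone that had grown out after deletion, and dKO but not WTFL cells carried the GFP virus, so genotype, clone and virus cannot be told apart. Cebpa had 903 to 1437 normalized reads in the WTFL libraries of C1 and 1653 to 2267 in those of C2, and 0 in every dKO library. Cebpb had 1394 to 1559 and 1353 to 1634 in the WTFL libraries of C1 and C2, and 0 in every dKO library. In dKO-LAP* cells, 2538 to 4216 normalized reads were listed under Cebpb, where reads of the rat transgene that align to the mouse gene would be counted. Between 9212237 and 13613500 reads fell on genes in each library. Of 12 myeloid progenitor markers, 11 or 12 had a group mean above 10 normalized reads in each group, but their levels differed between groups. Of the 12, the knockout had 7 higher and 1 lower in each clone, where 17.1% and 19.9% of all genes were higher and lower in C1 and 17.4% and 20.1% in C2. The number lower was 0 without WTFL C1 replicate 2 or dKO C1 replicate 1 or 2, and 2 without WTFL C2 replicate 1 or dKO C2 replicate 1. The progenitor antigen gene Cd34 had 0 to 7.22 normalized reads in WTFL libraries, 2393 to 2745 in dKO C1 and 5935 to 6975 in dKO C2. Mpo, which encodes myeloperoxidase, rose by 2.29 and 3.08 on the log2 scale in C1 and C2 (adjusted p = 2.8e-06 and 1.4e-07), and the stem cell factor receptor gene Kit rose from 999 ± 176 to 2268 ± 144 normalized reads (SD, n = 3) in C1 and from 307 ± 27.1 to 1376 ± 178 in C2 (limma, adjusted p = 8.0e-07 and 1.1e-09). Between WTFL cells, 1 of the 12 was higher and 7 were lower in C2 than in C1, where 19.7% and 21.3% of all genes were. The T cell, erythroid and stromal lists held at most 23.8 in sum. The hepatocyte list held up to 168, with its defining gene Alb at 0 in every library. Its main gene, the alpha-fetoprotein gene Afp, had 27.1 to 36.1 normalized reads in WTFL C1, 7.06 to 10.5 in dKO C1, 106 to 165 in WTFL C2 and 72.9 to 83.7 in dKO C2. Afp was lower in dKO cells of C1 (-1.80, adjusted p = 3.9e-05) and C2 (-0.69, adjusted p = 0.042), the latter call being kept only without WTFL C2 replicate 3, and higher in WTFL C2 than in WTFL C1 (1.97, adjusted p = 1.1e-05). Hnf4a had 0 to 1.02 and 2.27 to 5.30 in WTFL and dKO C1 and 0 to 4.98 and 5.83 to 13.6 in those of C2. Markers of mast cells and basophils (5 genes) summed to 68.3 to 94.99 in WTFL C1 and 1459 to 1726 in dKO C1, and to 92.5 to 119 in WTFL C2 and 450.1 to 733 in dKO C2. Of the 3 genes of that list that were tested, 3 were higher in dKO C1 (2 higher without WTFL C1 replicate 3 or dKO C1 replicate 1 or 3), and 1 was higher and 1 lower in dKO C2. The mast cell protease gene Cpa3, at 0 to 1.05 in the WTFL libraries, made up most of these sums (1297 to 1546 in dKO C1 and 385 to 667 in dKO C2), while Ms4a2, a chain of the IgE receptor, fell in dKO C2 (61.8 ± 12.3 to 8.10 ± 3.98). The megakaryocyte list (5 genes) went from 33.6 to 59.5 to 204 to 308 in C1 and from 11.0 to 46.7 to 122 to 221 in C2. Of its 4 tested genes, Itga2b and Gp1bb were higher and the platelet chemokine genes Ppbp and Pf4 lower in dKO C1, where the list had 1 lower without WTFL C1 replicate 1 or 2 or dKO C1 replicate 2. In dKO C2, Itga2b alone was called, higher, and 2 genes were higher without dKO C2 replicate 3. The B cell receptor gene Cd79b had 87.5 to 116 normalized reads in WTFL C1 and 0 to 2.27 in dKO C1, and 20.97 to 32.9 in WTFL C2 and 0 to 3.14 in dKO C2. In dKO-LAP* C1 the mast cell and basophil list summed to 232.5 to 286.7 and the megakaryocyte list to 56.2 to 70.1. Against dKO C1, dKO-LAP* cells had Cpa3 (-3.56), Itga2b (-2.62) and the myeloid progenitor marker Lyz2 (-1.15) called lower. No gene of those 3 lists was called higher, where 1.43% of all genes were higher and 3.03% lower. The part of these marker changes in the results below was not tested. In these bulk samples, fewer cells of a type and less RNA per cell cannot be told apart.

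Because Cdkn2a changed most of the 10 genes in dKO cells of both clones, the sequences just upstream of its transcript starts and of the adjoining Cdkn2b are shown (RefSeq, GRCm38.p6, minus strand, 5′ to 3′, ending at the base before the start). Promoter windows were held for 8 of the 10 genes, in 12 windows. Capitals mark a match to an E2F motif (TTTNNCGC or its reverse complement GCGNNAAA) or a C/EBP motif (TTNNGNAA or TTNCNNAA). The first is upstream of the start that gives p19Arf, at chr4:89294654-89294869, the second upstream of the start that gives p16Ink4a, at chr4:89282193-89282442, and the third upstream of Cdkn2b, at chr4:89311040-89311282.
Cdkn2a, p19Arf start: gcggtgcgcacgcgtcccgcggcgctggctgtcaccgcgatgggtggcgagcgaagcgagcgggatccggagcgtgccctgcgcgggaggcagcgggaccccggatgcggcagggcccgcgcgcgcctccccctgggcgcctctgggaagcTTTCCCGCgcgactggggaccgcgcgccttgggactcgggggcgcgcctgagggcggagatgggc
Cdkn2a, p16Ink4a start: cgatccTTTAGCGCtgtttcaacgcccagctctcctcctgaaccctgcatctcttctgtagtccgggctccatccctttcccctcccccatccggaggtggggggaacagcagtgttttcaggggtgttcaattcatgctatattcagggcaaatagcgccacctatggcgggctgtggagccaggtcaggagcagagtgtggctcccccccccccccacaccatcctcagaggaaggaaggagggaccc
Cdkn2b: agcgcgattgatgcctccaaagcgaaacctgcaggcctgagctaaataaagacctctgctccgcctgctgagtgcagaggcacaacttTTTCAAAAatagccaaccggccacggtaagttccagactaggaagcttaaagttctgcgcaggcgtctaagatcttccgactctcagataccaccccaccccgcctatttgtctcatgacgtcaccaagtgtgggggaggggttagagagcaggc
Both Cdkn2a starts had an E2F match, and Cdkn2b had a C/EBP match. Over 300-base windows, an E2F match was found in 3 of the 12 windows of these genes and in 5.17% of all 32851 windows, and a C/EBP match in 4 of the 12 and in 40.7% of all. A match of letters is a description and does not show a bound site.

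Cdkn2a RNA was higher in dKO than in WTFL cells in both clones, and in dKO-LAP* cells it lay in the range of dKO cells. The gene lies at chr4:89274471-89294653 (mm10, GENCODE vM21, minus strand), and the counts over its exons pool p16Ink4a and p19Arf transcripts. In WTFL C1 its 3 libraries had 9.37, 11.7 and 11.2 normalized reads, in dKO C1 they had 87.2, 75.5 and 61.8, and in dKO-LAP* C1 they had 81.3, 83.9 and 71.1. In C2 the WTFL libraries had 41.8, 99.6 and 106, and the dKO libraries 444, 373 and 501. Every dKO library lay above every WTFL library of its clone, whereas dKO and dKO-LAP* overlapped. The ratio of dKO to WTFL means was 6.95 in C1, with a log2 fold change of 2.68 (SE 0.27, adjusted p = 1.4e-06). In C2 the ratio was 5.32 (log2 fold change 2.50, adjusted p = 3.5e-06), and the effects in the 2 clones differed by -0.18 (95% interval -1.0 to 0.64, adjusted p = 0.78). Starting levels differed: WTFL C2 had 7.67 times the Cdkn2a RNA of WTFL C1 (log2 difference 2.72, adjusted p = 8.1e-07). Cdkn2a in dKO-LAP* differed from dKO by 0.08 on the log2 scale (95% interval -0.50 to 0.66, adjusted p = 0.92), and dKO-LAP* stayed 7.31 times above WTFL C1 (adjusted p = 1.1e-06).

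**Figure D1:**
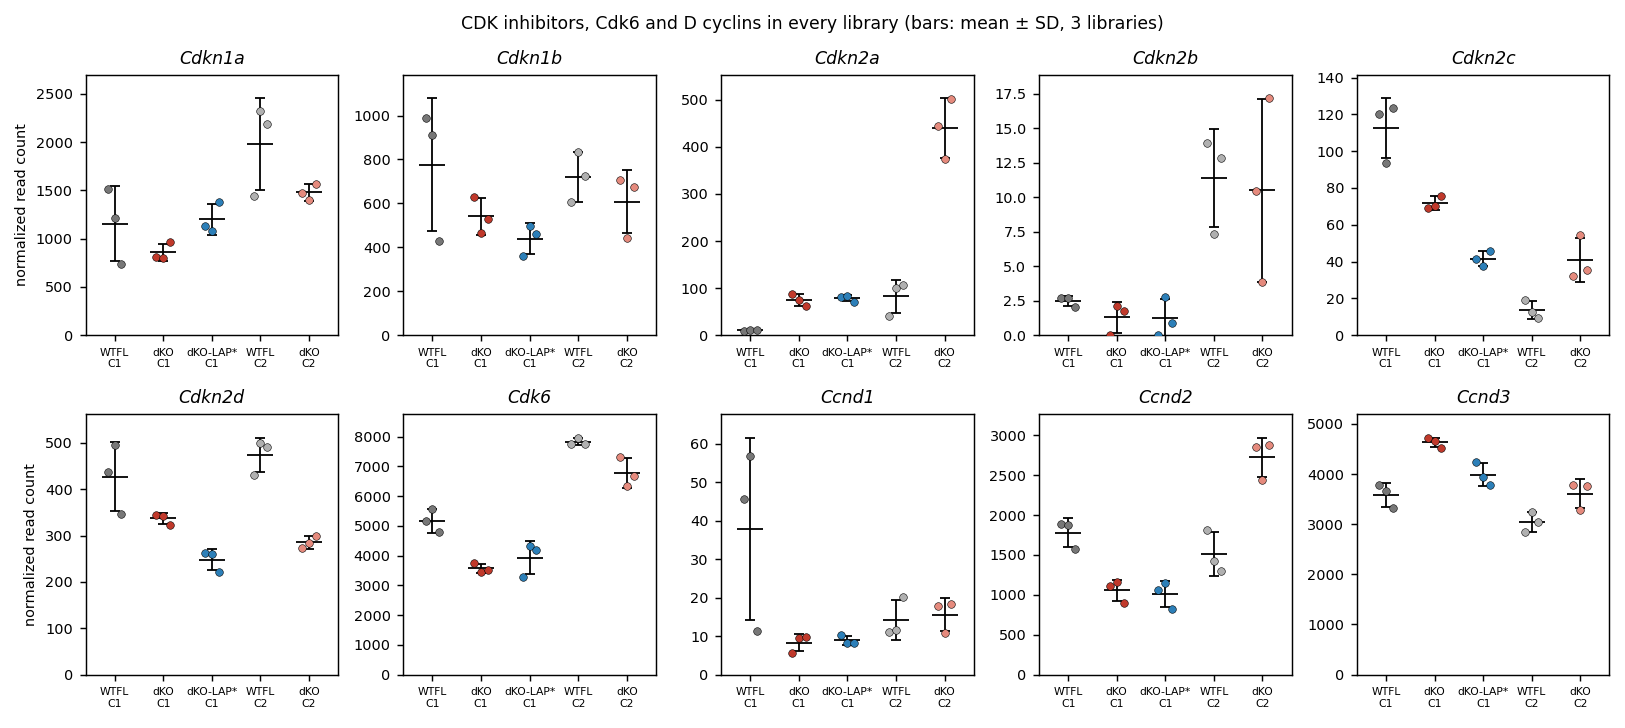
Normalized read counts (y axis, linear, from 0, a separate scale for each gene) of the 10 genes in every library (points), by group (x axis), with the mean and SD of 3 libraries as bars. Cdkn2a is highest in dKO C2 (373 to 501) and lowest in WTFL C1 (9.37 to 11.7), while in dKO cells Ccnd2 is below WTFL cells in C1 and above them in C2.

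Of the few neighbours of Cdkn2a on chromosome 4 with enough reads to test, none was called higher in dKO cells. Cdkn2b (chr4:89306299-89311039), the adjoining gene for p15Ink4b, was hardly expressed. It had 2.04 to 2.71 normalized reads in WTFL C1, 0 to 2.10 in dKO C1 and 0 to 2.77 in dKO-LAP* C1, which is at or under the floor of 3 reads per library, so no fold is given within C1. In C2 it had 13.9, 7.34 and 12.8 in WTFL libraries and 10.5, 3.89 and 17.2 in dKO libraries, which overlapped (log2 fold change -0.25, 95% interval -1.49 to 0.98, adjusted p = 0.77). Against the floor in WTFL C1, WTFL C2 had at least 3.49-fold higher Cdkn2b RNA, given as a description with no test because the gene passed the filter only through C2. Mtap, which encodes methylthioadenosine phosphorylase, fell in dKO C1 by 0.45 on the log2 scale (adjusted p = 0.0013) and differed by 0.06 in C2 (adjusted p = 0.63). Dmrta1 had 0 reads in every library. Elavl2, which encodes an RNA-binding protein, was not called in dKO C1 and lay at the floor in both groups of C2. Few neighbours could thus show a rise, and whether the rise is particular to Cdkn2a was not tested.

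Of the other INK4 genes, Cdkn2c rose in dKO cells of C2 and Cdkn2d fell in dKO cells of both clones. Cdkn2c (chr4:109660876-109667189) had 120.4, 93.8 and 123 normalized reads in WTFL C1, 69.1, 70.3 and 75.9 in dKO C1, and 41.65, 37.8 and 45.6 in dKO-LAP* C1. These 3 groups of C1 did not overlap, with WTFL highest and dKO-LAP* lowest. In C2, by contrast, the WTFL libraries had 18.9, 12.6 and 9.16 and the dKO libraries 32.4, 54.4 and 35.4, again without overlap. The ratio of dKO to WTFL means was 3.01 in C2 (log2 fold change 1.54, adjusted p = 0.00014). In C1 the log2 fold change of -0.63 did not pass the threshold (adjusted p = 0.055, and 0.021 to 0.11 over 8 other settings, of which 4 called it). The difference between the clones' effects was 2.17 (95% interval 1.43 to 2.91, adjusted p = 0.00023). WTFL C1 had 8.30 times the Cdkn2c RNA of WTFL C2 (adjusted p = 8.2e-08). In dKO-LAP* C1, Cdkn2c was lower than in WTFL C1 by 1.40 on the log2 scale (log2 fold change -1.40, adjusted p = 0.00033) and differed from dKO by -0.77 (adjusted p = 0.093).

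Cdkn2d (chr9:21288410-21291407) was the INK4 gene with the most RNA per length in 4 of the 5 groups, all but dKO C2. It had 438, 495 and 347 normalized reads in WTFL C1, 344, 343 and 323 in dKO C1, and 262, 259 and 222 in dKO-LAP* C1. In C2 it had 431, 499 and 492 in WTFL and 272, 285 and 299 in dKO libraries. The WTFL libraries were the highest of each clone and did not overlap with dKO libraries, although WTFL C1 replicate 3 came close. The fall in C2 was 0.73 on the log2 scale (log2 fold change -0.73, SE 0.12, adjusted p = 0.00016). In C1 the log2 fold change of -0.33 passed the threshold (adjusted p = 0.041) but kept the call in 1 of 6 fits that each left out a library, the one without WTFL C1 replicate 3 (adjusted p = 0.0031). Without WTFL C1 replicate 1 or 2 or any dKO C1 library, the adjusted p rose to between 0.067 and 0.19. The call was also lost in 3 of 8 other settings, without a filter (0.059), after quantile normalization (0.070) and with only the groups compared (0.10). In dKO-LAP* cells Cdkn2d was lower than in WTFL C1 (log2 fold change -0.77, adjusted p = 9.3e-05) and than in dKO C1 (-0.45, adjusted p = 0.044), and the latter call was lost when any of the 6 libraries was left out (adjusted p 0.058 to 0.19).

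Neither Cdkn1a nor Cdkn1b was called in either comparison of dKO with WTFL cells, and the WTFL C1 libraries were widely spread for both. Cdkn1a (chr17:29090976-29100727), which encodes p21 and is a target of p53, had 1515, 1216 and 743 normalized reads in WTFL C1 and 815, 800.3 and 963 in dKO C1. Its dKO-LAP* libraries had 1135, 1085 and 1383, and in C2 the WTFL libraries had 1441, 2319 and 2187 and the dKO libraries 1469, 1402 and 1567. One WTFL library in each clone, replicate 3 of C1 and replicate 1 of C2, lay far below the other two, within or under the range of the dKO libraries. The log2 fold changes were -0.37 in C1 (95% interval -0.82 to 0.07, adjusted p = 0.18) and -0.39 in C2 (95% interval -0.84 to 0.05, adjusted p = 0.16). Without that library the adjusted p was 0.0065 in C1 (log2 fold change -0.66) and 0.036 in C2 (-0.61), so 1 WTFL library per clone decided whether Cdkn1a was called lower. WTFL C2 had 1.71 times the Cdkn1a RNA of WTFL C1 (adjusted p = 0.0059).

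Cdkn1b (chr6:134920401-134925513), which encodes p27, had 987, 912 and 430.0 normalized reads in WTFL C1, 631, 464 and 529 in dKO C1, and 361, 498 and 459 in dKO-LAP* C1. In C2 it had 607, 834 and 723 in WTFL and 706, 442 and 674 in dKO libraries. All 5 groups overlapped with their neighbours in the order of the means. The log2 fold changes of dKO against WTFL were -0.44 in C1 (adjusted p = 0.20) and -0.27 in C2 (adjusted p = 0.45). As for Cdkn1a, leaving out WTFL C1 replicate 3 made Cdkn1b lower in dKO C1 (log2 fold change -0.82, adjusted p = 0.0040). Against WTFL C1, dKO-LAP* cells had less Cdkn1b (log2 fold change -0.74, adjusted p = 0.038), and this call was lost without WTFL C1 replicate 1 or 2 or dKO-LAP* replicate 1 or 3 (adjusted p 0.067 to 0.18). It was also lost in 4 of 8 other settings, those without a filter, after quantile normalization, with a replicate block and with only the groups compared (adjusted p 0.051 to 0.090). Leaving out a library gave log2 fold changes of -1.12 to -0.52, with an adjusted p as low as 0.00037.

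Cdk6 (chr5:3341485-3531008) fell in dKO cells of C1. It had 5147, 5574 and 4787 normalized reads in WTFL C1, 3744, 3433 and 3531 in dKO C1, and 3290.2, 4322 and 4190.4 in dKO-LAP* C1. The WTFL libraries lay above both other groups of C1, which overlapped with each other. The mean in WTFL C1 was 1.45 times that in dKO C1 (log2 fold change -0.53, SE 0.095, adjusted p = 0.00035) and 1.31 times that in dKO-LAP* (log2 fold change -0.40, adjusted p = 0.0037). In C2 the WTFL libraries had 7769.7, 7971 and 7758 and the dKO libraries 7319, 6338 and 6689, which did not overlap. That difference, a log2 fold change of -0.21, missed the threshold (95% interval -0.41 to -0.01, adjusted p = 0.095), and 2 of 8 other settings called it (adjusted p 0.0076 after quantile normalization and 0.048 with only the groups compared). WTFL C2 had 1.52 times the Cdk6 RNA of WTFL C1 (adjusted p = 8.8e-05), so dKO C2 still had more than any C1 group.

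The D cyclins showed 3 different patterns. Ccnd2 (chr6:127125162-127152193) had 1891, 1876 and 1574 normalized reads in WTFL C1, 1105, 1155 and 902 in dKO C1, and 1065, 1144 and 824 in dKO-LAP* C1. In C2 it had 1815, 1425 and 1295 in WTFL and 2853, 2436 and 2880.0 in dKO libraries. The dKO libraries thus lay below all WTFL libraries in C1 and above all of them in C2. The log2 fold changes were -0.76 (SE 0.14, adjusted p = 0.00052) and 0.86 (SE 0.14, adjusted p = 0.00018), and they differed by 1.62 (95% interval 1.19 to 2.04, adjusted p = 2.3e-05). This difference was called in all 8 other settings and in all 12 fits that each left out a library. WTFL cells of the clones differed by -0.25 (C2 against C1, adjusted p = 0.18), and Ccnd2 in dKO-LAP* differed from dKO by -0.07 (95% interval -0.37 to 0.23, adjusted p = 0.86).

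Ccnd3 (chr17:47505051-47599691) rose in dKO cells of both clones by a small amount. It had 3773, 3671 and 3313 normalized reads in WTFL C1, 4715, 4652 and 4523 in dKO C1, and 4235, 3947 and 3778 in dKO-LAP* C1. In C2 it had 2839, 3247 and 3033 in WTFL and 3789, 3279.7 and 3759.5 in dKO libraries. The groups of neither clone overlapped, although dKO C2 replicate 2 lay only just above WTFL C2 replicate 2. The log2 fold changes were 0.37 in C1 (SE 0.077, adjusted p = 0.0013) and 0.25 in C2 (adjusted p = 0.019). The call in C2 was lost without WTFL C2 replicate 1 or 3 or dKO C2 replicate 1 or 3 (adjusted p 0.051 to 0.088), and after quantile normalization (0.051). Ccnd3 in dKO-LAP* differed from dKO by -0.22 (adjusted p = 0.14) and from WTFL C1 by 0.15 (adjusted p = 0.15).

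Ccnd1 (chr7:144929931-144939925) had few reads in most libraries. It had 45.5, 56.8 and 11.2 normalized reads in WTFL C1, 5.66, 9.44 and 9.71 in dKO C1, and 10.2, 8.30 and 8.21 in dKO-LAP* C1. In C2 it had 10.95, 11.5 and 20.2 in WTFL and 17.8, 10.7 and 18.2 in dKO libraries. Only 2 WTFL C1 libraries stood clear of the rest. Ccnd1 was lower in dKO C1 (log2 fold change -1.82, SE 0.47, adjusted p = 0.0060), and without WTFL C1 replicate 3 the log2 fold change was -2.52. It was also lower in dKO-LAP* than in WTFL C1 (-1.70, adjusted p = 0.010), a call lost without WTFL C1 replicate 1 or 2, and the log2 fold change was -2.40 without WTFL C1 replicate 3. In C2 the log2 fold change was 0.14 (adjusted p = 0.85). The clones' effects differed by 1.96 (adjusted p = 0.035), which 5 of 8 other settings and 5 of 12 fits without a library called. The calls of that difference were lost without WTFL C1 replicate 1 or 2, dKO C1 replicate 1, WTFL C2 replicate 1 or 2, or dKO C2 replicate 1 or 3 (adjusted p up to 0.092), and without WTFL C1 replicate 3 it was 2.65. In the annotation, exons of Ccnd1 overlap those of LTO1 on the other strand, as do Ccnd3 and Bysl, Ccnd2 and Gm43126, Cdk6 and Gm17590, and Cdkn1a and AC167363.2. Since the strand setting of the counting is not given in the sources used here, reads of these pairs may be mixed.

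**Figure D2:**
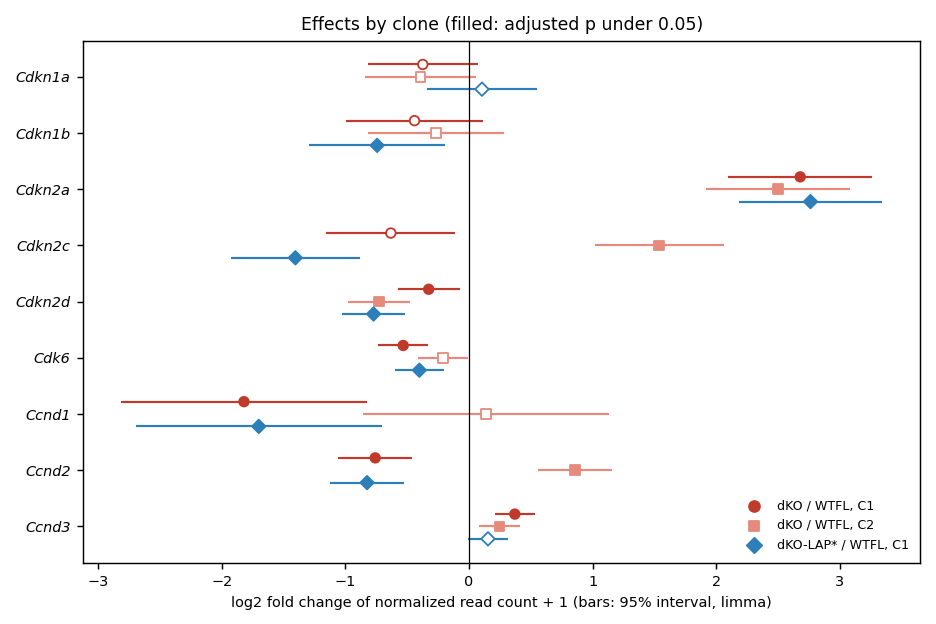
Log2 fold changes (x axis, limma, with 95% intervals) of 9 genes (y axis) for dKO against WTFL cells of C1 (circles) and C2 (squares) and for dKO-LAP* against WTFL cells of C1 (diamonds), with filled symbols for an adjusted p under 0.05. Cdkn2a lies between 2.50 and 2.76 in all 3 comparisons, whereas Ccnd2 lies at -0.76 and -0.82 in C1 and at 0.86 in C2. Cdkn2b is left out because its C1 groups were at the floor.

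Of the 10 genes, dKO cells of C1 had 2 called higher and 4 called lower than in WTFL cells. Over all genes tested, 17.1% were higher and 19.9% lower, or 37.0% in all. In C2, 4 were called higher and 1 lower, where 17.4% of all genes were higher and 20.1% lower, or 37.6% in all. Cdkn2a and Ccnd3 were higher in both clones, as were 5.69% of all genes, and Cdkn2d was lower in both, as were 8.36%. Ccnd2 was the only one of the 10 called in opposite directions, as were 4.10% of all genes. The test of the difference between the clones' effects called Cdkn2c, Ccnd1 and Ccnd2, each with the larger value in C2, where 29.4% of all genes were called, 15.1% with the larger and 14.3% with the smaller value in C2. The median log2 fold change of the 10 genes was -0.49 in C1 and -0.04 in C2, beside -0.01 and -0.03 over all genes tested. Without Cdkn2b the medians over 9 genes were -0.44 (-0.59 to -0.30 leaving out a library) and 0.14 (-0.01 without WTFL C2 replicate 1, 0.31 without dKO C2 replicate 2). The median in C2 over the 10 turned positive without dKO C2 replicate 2 (0.29) or WTFL C2 replicate 3 (0.05) and was -0.12 without dKO C2 replicate 1.

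**Figure D3:**
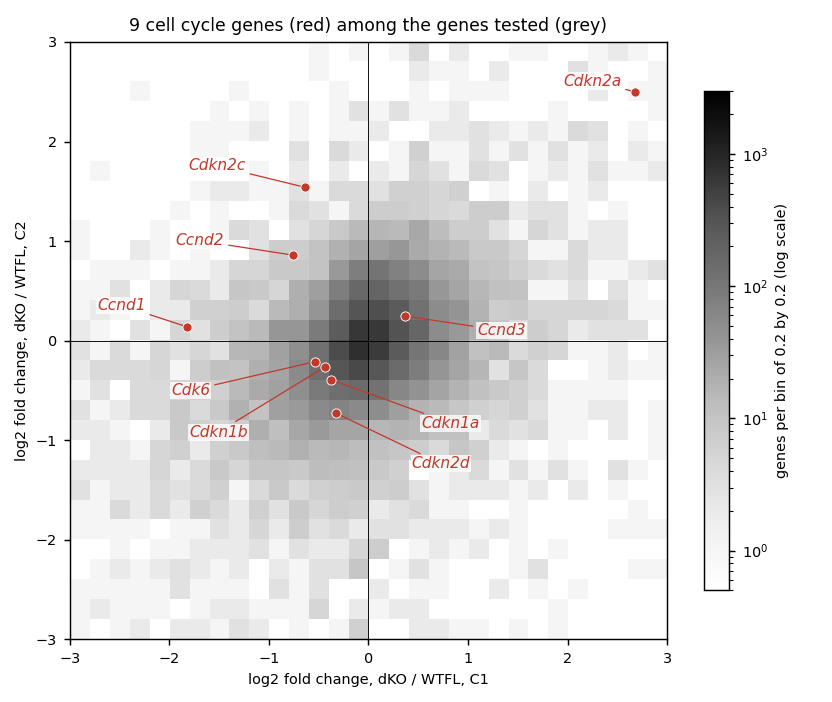
Log2 fold change of dKO against WTFL cells in C1 (x axis) and C2 (y axis) for 9 of the genes (red points, labelled) over the number of genes tested per bin (grey, log scale). Genes with a change beyond 3 on either axis are not drawn. Cdkn2a is at the upper right (2.68 and 2.50), and Ccnd2 (-0.76 and 0.86) and Cdkn2c (-0.63 and 1.54) are in the upper left quadrant.

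The dKO-LAP* cells address how these genes stand after 1 C/EBPβ isoform was added to dKO cells by a virus. The paper found the related protein C/EBPε at high levels in all its dKO clones. It also saw this protein disappear after long culture with LAP*, so dKO-LAP* and dKO cells may differ in C/EBPε too. Against dKO C1, with which it shared the clone and the virus backbone, dKO-LAP* differed in 1 of 10, Cdkn2d, which was lower still, where 4.46% of all genes were called (1.43% higher and 3.03% lower). Against WTFL C1, dKO-LAP* had 1 gene higher and 6 lower, where 32.5% of all genes were called (14.2% higher and 18.3% lower). Both comparisons share libraries with that of dKO and WTFL C1. For Cdkn2a, Ccnd2, Cdk6 and Ccnd1, the log2 fold changes against WTFL C1 were 2.68, -0.76, -0.53 and -1.82 in dKO cells and 2.76, -0.82, -0.40 and -1.70 in dKO-LAP* cells. For Cdkn1a, Ccnd3 and Cdkn2c they were -0.37, 0.37 and -0.63 in dKO cells and 0.10, 0.15 and -1.40 in dKO-LAP* cells. Cdkn1a was at 1085 to 1383 in dKO-LAP* and 800.3 to 963 in dKO C1, which did not overlap, but the difference of 0.48 on the log2 scale (95% interval 0.03 to 0.93) did not pass the threshold (adjusted p = 0.24).

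WTFL cells of the 2 clones also differed from each other. Apart from Cdkn2b, which passed the filter only through C2, WTFL C2 had 3 genes higher than WTFL C1 (Cdkn1a, Cdkn2a and Cdk6) and 2 lower (Cdkn2c and Ccnd3), where 41.0% of all genes were called (19.7% higher and 21.3% lower). The log2 difference was -3.01 for Cdkn2c and -0.24 for Ccnd3 (adjusted p = 0.021), and the latter call was lost without WTFL C1 replicate 1 or 2 or WTFL C2 replicate 1 or 3.

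Levels of different genes were compared as normalized reads per kb of merged exons. Merged exons join those of every annotated transcript of a gene, so ranks and shares between genes depend on the annotation. Ccnd3 was the main D cyclin RNA in every group. Of the summed D cyclin level per kb, it made up 67.5% ± 1.33 (SD, n = 3) in WTFL C1, 82.3% ± 1.58 in dKO C1 and 80.7% ± 2.17 in dKO-LAP* C1. Ccnd2 made up 31.2% ± 0.560 in WTFL C1, 17.4% ± 1.61 in dKO C1 and 19.0% ± 2.18 in dKO-LAP* C1. In C2 the share of Ccnd2 went the other way, from 31.4% ± 4.99 in WTFL to 41.1% ± 0.341 in dKO cells. The 2 WTFL groups overlapped in this share, and the dKO libraries lay below all of them in C1 and above all of them in C2. The sum itself was 606 ± 51.1 in WTFL C1 and 641 ± 24.3 in dKO C1, and 510.1 ± 19.6 in WTFL C2 and 704 ± 59.9 in dKO C2. Ccnd1 made up at most 1.92% of the sum in any library.

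Among the 6 inhibitors, Cdkn1a had the most RNA per kb in every group and Cdkn2d or Cdkn2a the next. Cdkn1b had more normalized reads than Cdkn2d in every group but fewer per kb, its merged exons being longer (4552 against 1574 bases). Cdkn2a made up 1.19% ± 0.420 of the inhibitor sum per kb in WTFL C1, 9.59% ± 1.58 in dKO C1 and 9.99% ± 1.24 in dKO-LAP* C1. In C2 it made up 6.18% ± 1.83 in WTFL and 33.1% ± 1.65 in dKO cells. Of the INK4 genes alone, Cdkn2a was 64.6% ± 3.13 of the sum in dKO C2, where it passed Cdkn2d (31.5% ± 2.74), and 20.8% ± 2.50 in dKO C1, where Cdkn2d remained at 70.1% ± 1.41. The sum over all 6 inhibitors was 820.4 ± 210.2 in WTFL C1, 666 ± 25.9 in dKO C1, 1101 ± 206 in WTFL C2 and 1129 ± 109 in dKO C2, so within each clone the groups overlapped in total.

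**Figure D4:**
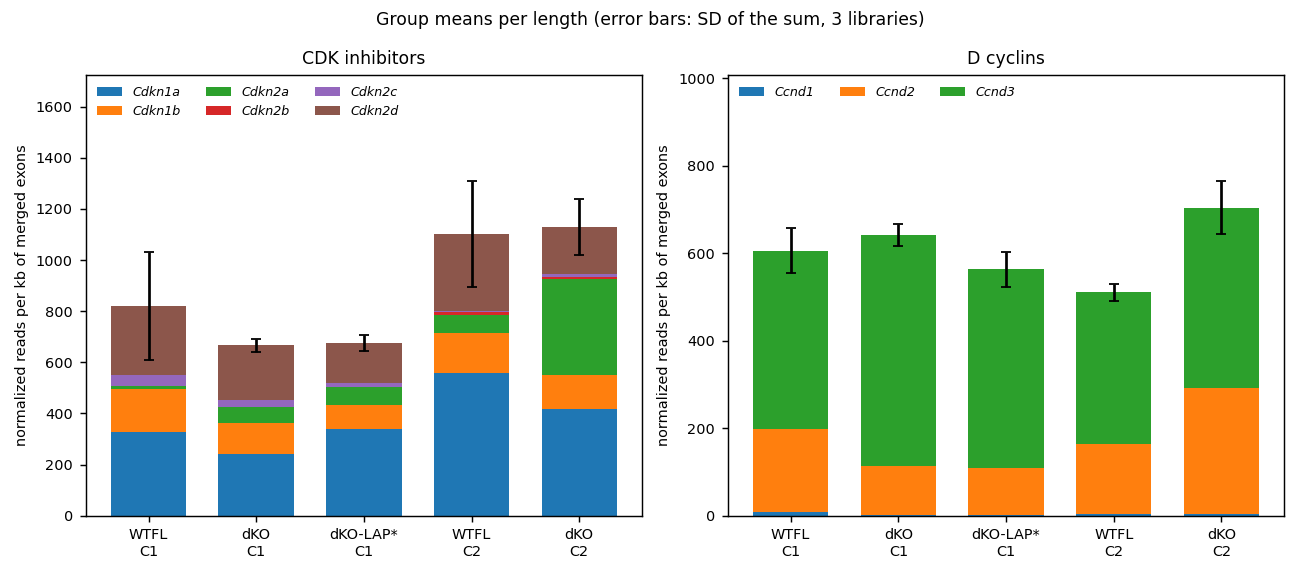
Stacked bars of the mean level of each CDK inhibitor (left) and D cyclin (right) by group, in normalized reads per kb of merged exons (y axis, from 0), with error bars for the SD of the sum over 3 libraries. Cdkn2a takes 33.1% of the inhibitor bar in dKO C2, and Ccnd2 takes 17.4% of the D cyclin bar in dKO C1 and 41.1% in dKO C2.

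The partners and targets of these genes were counted by lists, which were written with earlier results of these data known. The counts are to be read beside the shares of all genes tested, 17.1% higher and 19.9% lower in dKO C1 and 17.4% higher and 20.1% lower in dKO C2. Of 24 other genes of the G1-S engine, 3 were higher and 6 lower in dKO C1 (median log2 fold change -0.10), and 7 higher and 5 lower in dKO C2 (median 0.09). Without WTFL C1 replicate 1 or dKO C1 replicate 1 the number higher in C1 was 1, without WTFL C2 replicate 2 or 3 or dKO C2 replicate 2 the number higher in C2 was 4, and without WTFL C2 replicate 2 or dKO C2 replicate 3 the number lower was 3. The median in C1 was -0.20 without WTFL C1 replicate 2 and -0.01 without WTFL C1 replicate 3, and that in C2 stayed between 0.06 and 0.10. Cdk4, the other D cyclin kinase, had 3297 ± 190 (SD, n = 3) normalized reads in WTFL C1 and 3560 ± 265 in dKO C1 (log2 fold change 0.11, adjusted p = 0.37). In C2 Cdk4 rose from 3065 ± 107 to 5173 ± 513 (0.75, adjusted p = 9.1e-06). Cdk2 rose by 0.21 in C1 (adjusted p = 0.038) and 0.50 in C2 (adjusted p = 8.1e-05), and Rb1 differed by -0.40 and -0.06 (adjusted p = 0.15 and 0.85). E2f2, an activator E2F, fell in both clones, from 948 ± 131 to 286 ± 45.8 in C1 (-1.73, adjusted p = 3.4e-07) and from 602 ± 28.7 to 359 ± 59.7 in C2 (-0.76, adjusted p = 0.0012). Cdkn1c, the third CIP/KIP gene, had few reads, with means of 5.81 in WTFL and 6.02 in dKO cells of C1, and of 17.5 and 3.85 in those of C2. It passed the filter only through WTFL C2, so no test is given, although it is one of the 5 genes counted as lower in C2.

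Later cell cycle genes were counted by phase. Of 24 S phase genes, many of them E2F targets, 0 were higher and 3 lower in dKO C1 (median -0.10) and 4 higher and 2 lower in dKO C2 (median 0.04), where 17.1% and 19.9% of all genes were higher and lower in C1 and 17.4% and 20.1% in C2. The S phase count in C1 was 1 lower without WTFL C1 replicate 3 or dKO C1 replicate 1 or 3, with 1 higher without WTFL C1 replicate 3 or dKO C1 replicate 3, and 5 lower without WTFL C1 replicate 2. The median in C1 was -0.15 to -0.01 leaving out a library (-0.01 without WTFL C1 replicate 3), and that in C2 turned to -0.06 without dKO C2 replicate 2. Tk1, thymidine kinase, fell in both clones (-0.55 in C1, adjusted p = 0.0015, and -0.78 in C2, adjusted p = 8.0e-05), whereas the helicase subunit gene Mcm6 rose in C2 (0.73, adjusted p = 2.3e-06) and differed by -0.05 in C1 (adjusted p = 0.66). The WTFL cells differed too: 1 of the 24 S phase genes was higher and 17 were lower in WTFL C2 than in WTFL C1 (median -0.29). Over all genes, 19.7% were higher and 21.3% lower in that comparison. Mcm6 (-0.31) and Tk1 (-0.66) were among the lower ones. Of 22 G2-M genes, 0 were higher and 11 lower in C1 (median -0.29) and 0 higher and 8 lower in C2 (median -0.20), where 19.9% and 20.1% of all genes were lower. WTFL C1 replicate 3 was the highest of the 6 libraries of WTFL and dKO C1 for 21 of these 22 genes, Ccnb2 for instance having 1703, 1669 and 2401 normalized reads in WTFL C1 and 1519, 1650 and 1468 in dKO C1. Without that library 7 were lower in C1 (median -0.20). In C2, 4 were lower without WTFL C2 replicate 1, dKO C2 replicate 1 or dKO C2 replicate 3. Among the genes lower in both clones was Bub1, a spindle checkpoint kinase, at -0.47 and -0.40 (adjusted p = 0.0014 and 0.0046). Of the lists with a count of 0 higher by limma, an unadjusted p under 0.05 was reached by 2 S phase genes in C1 and by 0 and 1 G2-M genes in C1 and C2. DESeq2 called 2 of these S phase genes, and edgeR called 0. Against WTFL C1, 9 of the G2-M genes were lower in dKO-LAP* cells, with 7 to 13 leaving out a library (7 without WTFL C1 replicate 3, 13 without replicate 2), where 18.3% of all genes were lower.

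Of 19 measured regulators of D cyclins, p27 and p21, 0 were higher (also 0 at an unadjusted p under 0.05 by limma, with edgeR and with DESeq2) and 2 lower in dKO C1, where 17.1% and 19.9% of all genes were higher and lower. In dKO C2, 3 were higher and 4 lower, where 17.4% and 20.1% of all genes were, and 1 or 2 were lower without any one WTFL C2 library or dKO C2 replicate 2 or 3. Myc, which turns on Ccnd2, had a log2 fold change of -0.03 in C1 (adjusted p = 0.88) and rose by 0.53 in C2 (adjusted p = 0.0032). Mxd1, which encodes a MYC antagonist, fell in C2 (-0.89, adjusted p = 0.010) and differed by 0.30 in C1 (adjusted p = 0.36). Pim1, a cytokine-induced kinase, fell in C1 (-0.76, adjusted p = 0.00026) and differed by 0.18 in C2 (adjusted p = 0.30).

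Of 21 tested regulators of the INK4 locus, 5 were higher and 2 lower in dKO C1 (4 lower without dKO C1 replicate 1), where 17.1% and 19.9% of all genes were higher and lower. In dKO C2, 5 were higher and 4 lower, where 17.4% and 20.1% of all genes were. The Polycomb genes Bmi1 and Ezh2, whose products silence the locus, rose in C2 (0.72, adjusted p = 0.0016, and 0.40, adjusted p = 0.0022) and were at -0.22 and -0.05 in C1 (adjusted p = 0.28 and 0.68). Hmga2, a chromatin protein gene known to lower Ink4a and Arf in neural stem cells, had 0 reads in every WTFL library and means of 118 ± 38.9 in dKO C1, 68.2 ± 17.0 in dKO-LAP* C1 and 232 ± 47.4 in dKO C2. Against the floor of 3 reads per library, this is at least 36.3-fold higher in dKO C1 and at least 78.5-fold higher in dKO C2. Cbx6, a Polycomb chromodomain gene, rose in C1 (2.93, adjusted p = 6.7e-09) and fell in C2 (-0.73, adjusted p = 0.0054). The clones started from different levels of these genes. WTFL C2 against WTFL C1 was at 4.28 on the log2 scale for Cbx6, -0.53 for Bmi1 and -0.35 for Ezh2.

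Of 22 tested genes of the p53 pathway other than Cdkn1a, 3 were higher and 8 lower in dKO C1 (median -0.20), where 17.1% and 19.9% of all genes were higher and lower. In dKO C2, 7 were higher and 2 lower (median 0.26), where 17.4% and 20.1% of all genes were. In C1, 5 were lower without WTFL C1 replicate 1 or dKO C1 replicate 1, and 1 was higher without dKO C1 replicate 3. One of the 3 higher genes, Perp, passed the filter only through dKO-LAP* cells. In C2, 1 was lower without WTFL C2 replicate 1 or 2 or dKO C2 replicate 3. Trp53 had log2 fold changes of -0.24 in C1 (adjusted p = 0.063) and 0.49 in C2 (adjusted p = 0.00085). Mdm2, the target of p19Arf and itself induced by p53, fell by 0.32 in C1 (log2 fold change -0.32, adjusted p = 0.0072) and rose by 0.24 in C2 (adjusted p = 0.035).

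Across the 15 libraries, the genes whose log2 levels followed each gene most closely were Adss (Pearson r = 0.988) and Ccdc90b (0.980) for Cdk6, Espnl (0.962) and Fut8 (0.959) for Cdkn2a, and Rab23 (0.954) and Ivns1abp (0.943) for Ccnd2. For Ccnd3 they were Orm1 (0.943) and Rhbdd2 (0.939), for Cdkn2c Fcgr1 (0.938) and Camkk2 (0.938), and for Cdkn2d Prnp (0.936) and Phlda1 (0.934). For Cdkn1a they were Dag1 (0.920) and Fosl1 (0.909), and for Cdkn1b Wipf1 (0.896) and Chmp1b (0.892). These values describe 15 libraries of 5 groups that share clone and genotype, and the genes are the 2 closest of 12673 in each case.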

How the data were processed

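RNA-seq libraries (poly(A), stranded, paired-end) of MLL-ENL-transformed cells were analysed in 5 groups of 3. The authors aligned reads to mm10 with STAR 2.5.3a, counted them per gene with HTSeq 0.10.0 and divided the counts by DESeq2 1.26.0 size factors, so the deposited signal is a normalized read count. The gene annotation and strand setting are not given in the sources used here. Of 53384 rows, 5 named no gene and held 22.4% to 26.2% of reads; they were left out. 3 columns, named for dKO-LAP* cells of C2, matched no sample in the labels used here and were not analysed.

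Whole reads were recovered: 100% of values lay within 0.1 of a whole multiple of 1 read. Size factors were 0.747 to 1.13, and reads on genes had a median of 11885279. A level of 3 reads per library was taken as the floor. Genes with 10 normalized reads in 3 libraries (12673 of 24520 with any read) were tested with limma 3.58.1 (R 4.3.3) on log2(normalized read count + 1), with 1 mean per group over all 15 libraries, so fold changes of low genes are understated. P-values were adjusted by Benjamini-Hochberg over all genes tested, and an adjusted p under 0.05 was a call. The procedure was tested on simulated data.

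Alternatives were pseudocounts of 0.1 and 5, no filter, quantile normalization, a fit of the compared groups alone, a block for the replicate number, edgeR 4.0.16 and DESeq2 1.42.0 on recovered reads, and leaving out each library. Levels per kb used merged exons of GENCODE vM21. The 10 genes and the lists were chosen with earlier results of these data known. Named genes were all 10, Cebpa and Cebpb, neighbours of Cdkn2a, Cdk4, Cdk2, Rb1, Trp53, Mdm2, Bmi1, Ezh2 and Myc, up to 3 of the most changed genes of each list and comparison, and the 2 genes most correlated with each of the 8 better expressed ones.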

Additional observations from a re-analysis of the deposited data

Results flagged for a closer look

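The effect of the double knockout differed between the clones, by the interaction term of the limma fit, for 3 of the 10 genes and for 17 others whose change between WTFL and dKO cells is described above. No difference is given for genes that passed the filter through 1 group alone (Cdkn1c) or had a WTFL or dKO group at the floor of 3 reads (Cd34, Cd79b, Cpa3, Ppbp and others). Each value here is the log2 fold change in C2 minus that in C1. Among the 10 genes, Cdkn2c differed by 2.17, Ccnd1 by 1.96 and Ccnd2 by 1.62 (adjusted p = 0.00023, 0.035 and 2.3e-05). Among their partners and targets, E2f2 differed by 0.98, Mcm6 by 0.78 and Cdk4 by 0.64 (adjusted p = 0.0032, 6.7e-05 and 0.0013). Among regulators of D cyclins, Pim1 differed by 0.94, Myc by 0.56 and Mxd1 by -1.19 (adjusted p = 0.0012, 0.025 and 0.018). Among regulators and neighbours of the INK4 locus, Bmi1 differed by 0.94, Mtap by 0.51, Ezh2 by 0.45 and Cbx6 by -3.67 (adjusted p = 0.0039, 0.0080, 0.013 and 8.8e-08). Trp53 differed by 0.73 and Mdm2 by 0.55 (adjusted p = 0.00078 and 0.0022). Among cell type markers, Ms4a2 differed by -3.91, Itga2b by -2.54, Gp1bb by -2.29, Afp by 1.11 and Kit by 0.96 (adjusted p = 1.6e-05, 0.0064, 0.011, 0.029 and 0.00038). Over all genes tested, 29.4% were called for this difference. Starting levels differed for several of these genes. WTFL C2 against WTFL C1 was called at 4.28 for Cbx6, 2.10 for Itga2b, -1.69 for Kit and -0.68 for Trp53. It was also called at -0.65 for E2f2, -0.53 for Bmi1, -0.35 for Ezh2 and -0.31 for Mcm6. For Cdk4, Myc, Mdm2, Mtap and Gp1bb it was not called. Each clone supplied 1 dKO line, and the paper states that its sequenced dKO clones came from different animals. A difference between clones, between animals and between single lines therefore cannot be told apart.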

How the results depend on the processing

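Each of the 10 genes was refitted under 8 alternatives (7 for Ccnd1 in dKO-LAP* against dKO, which did not pass the filter with only those groups) and without each library. Refits of Cdkn2b are counted here for dKO against WTFL in C2 alone, because its C1 groups were at the floor and no fitted value is given for them. Of 823 values counted, 729 kept their direction and their side of the threshold, 47 lost a call, 23 gained one and 24 changed sign. The rises of Cdkn2a in both clones, the opposite changes of Ccnd2 and the rise of Cdkn2c in C2 were called in every one of these fits.

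Counts of calls among the 10 genes moved as follows. In C1, 3 rather than 4 were lower without a filter and after quantile normalization, 5 with a pseudocount of 5, edgeR or DESeq2, and 3 to 6 leaving out a library (6 without WTFL C1 replicate 3). In C2, 3 rather than 4 were higher after quantile normalization and without WTFL C2 replicate 1 or 3 or dKO C2 replicate 1 or 3. Also in C2, 2 rather than 1 were lower after quantile normalization and with only the groups compared (1 to 2 leaving out a library, 2 without WTFL C2 replicate 1). For the difference between clones, 1 rather than 0 had the lower value in C2 after quantile normalization (0 to 1 leaving out a library). For dKO-LAP* against dKO, 1 was higher with only the groups compared, and the number lower was 0 with a pseudocount of 0.1, without a filter, after quantile normalization and with edgeR, 2 with DESeq2 and with only the groups compared, and 0 without any of the 6 libraries, while genes called over the whole table went from 565 to between 266 and 479. For dKO-LAP* against WTFL, 2 were higher after quantile normalization, and 4 to 6 were lower leaving out a library (6 with all libraries, and 4 without WTFL C1 replicate 1 or 2). For WTFL C2 against WTFL C1, 1 to 3 were lower leaving out a library, and Ccnd1, uncalled (-1.12, adjusted p = 0.067), was called lower in 4 of 8 settings (adjusted p 0.021 to 0.16 over the 8) and without WTFL C1 replicate 3 (0.00069). Quantile normalization moved the share of called genes that were higher from 46.3% to 56.6% in dKO against WTFL C1 and from 43.6% to 56.9% in dKO-LAP* against WTFL C1. The cause of these shifts was not tested.

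Changes of sign were all in uncalled values. In C2, Cdkn2b was at 0.0064 after quantile normalization and -0.68 to 0.27 leaving out a library, and Ccnd1 at -0.011 to 0.40. For the difference between clones, Cdkn1a was at 0.0029 with edgeR, 0.0082 with DESeq2 and -0.24 to 0.27 leaving out a library, Cdkn1b at -0.044 to 0.56, and Cdkn2a at 0.10 with a pseudocount of 5 and -0.61 to 0.056. For dKO-LAP* against dKO, leaving out a library gave -0.046 to 0.20 for Cdkn2a, -0.10 to 0.24 for Ccnd1 and -0.17 to 0.074 for Ccnd2. Cdkn1a in dKO-LAP* against WTFL gave -0.18 to 0.33. Cdkn1b in WTFL C2 against WTFL C1 was 0.024 after quantile normalization and -0.41 to 0.19 leaving out a library.

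Deviations of same-numbered libraries of different groups had correlations of -0.319 to 0.297. These were not set against pairs with unlike numbers, so whether the numbers pair libraries was not tested. The main fit did not pair them. With the replicate number as a block, 4557 genes were called in C1, 4619 in C2, 3583 for the difference and 488 for dKO-LAP* against dKO, and the difference for Ccnd1 (1.96) had an adjusted p of 0.053. The block also ended the call of Cdkn1b in dKO-LAP* against WTFL (0.052), which left 5 rather than 6 lower.

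Counting depth limits Cdkn2b, Ccnd1 and Cdkn1c, for which a library held few reads, and the ratios that rest on Cdkn2a in WTFL C1 (7 to 13 reads) and Cdkn2c in WTFL C2 (10 to 19 reads). Intervals cover the spread between isolations of 1 line.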

Other observations

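Among the 10 genes, the log2 levels of Cdk6 over 15 libraries went with those of Cdkn1a (Pearson r = 0.78) and against those of Ccnd3 (-0.83), and those of Cdkn1b went with Ccnd1 (0.72) and Cdkn2d (0.71). These values describe libraries of 5 groups that share clones and genotypes. Elavl2, a neighbour of Cdkn2a on chromosome 4 that encodes an RNA-binding protein, had 21.4 to 55.5 normalized reads in all 9 libraries of C1 and 0 to 1 in all 6 of C2.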
